A study of Mus musculus with 3 samples.

Results

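T cells of the mouse liver were described here from droplet single-cell RNA profiles, as barcodes that carried transcripts of the CD3 chains or of the T cell receptor (TCR) constant regions. A barcode was taken as a T barcode when at most 40% of its UMIs (unique molecular identifiers, 1 per captured transcript) were mitochondrial, when it held at least 1 UMI summed over Cd3d, Cd3e, Cd3g, Trac, Trbc1 and Trbc2, and when it held 0 UMIs of Clec4f, Cd79a, Kdr, Siglech, Ncr1, Eomes, Klra8 and Klra4, genes of Kupffer, B, endothelial, plasmacytoid dendritic and natural killer cells. This found 1124 T barcodes among 29572 barcodes that passed the mitochondrial limit, of 30000 in all. The livers came from male C57BL/6 mice aged 9 weeks, all Ifih1-/- and all Alb-Cre+, with 1 library each for Adar1wt/wt, Adar1wt/flox and Adar1flox/flox, called wt/wt, wt/flox and flox/flox below. Ifih1 encodes MDA5, a sensor of double-stranded RNA, and Adar1 (Adar in the gene table) encodes the enzyme ADAR1, which edits such RNA. The Alb-Cre transgene is driven by the albumin promoter, which is active in hepatocytes, so the design removes the floxed allele in hepatocytes and not in T cells. With 1 library per genotype no difference has a replicate check: no test was made between genotypes, and all intervals are 95% intervals that cover counting error only. Differences between mice, preparations and genotypes cannot be told apart.

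T cells recognise antigen through a TCR made of alpha and beta or of gamma and delta chains, and signal through the CD3 chains and kinases such as LCK. The liver holds conventional CD8 and CD4 T cells beside natural killer T cells and gamma delta T cells, many of which carry the chemokine receptor CXCR6, cytotoxic granules and NKG2 receptors that are shared with natural killer cells. Type I interferons act on nearly all cells through the receptor IFNAR and a factor complex that includes STAT2 and IRF9, which binds the interferon-stimulated response element in the promoters of antiviral genes.

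Total depth was 9744380, 10067929 and 10756790 UMIs in the wt/wt, wt/flox and flox/flox libraries. Each library was deposited with exactly 10000 barcodes and a lowest count between 636 and 727 UMIs, so barcodes had been chosen by number. As a guide to free RNA in the droplets, values are set beside those of 26143 barcodes that held none of the T, natural killer, B and exclusion genes, called bare barcodes. Bare barcodes include cells, among them hepatocytes and some barcodes with other T cell genes, so they do not show free RNA alone. Their median depth was 833, 876 and 910.0 UMIs in the wt/wt, wt/flox and flox/flox libraries, against 1019, 1002 and 1011 UMIs in T barcodes. Adar, the targeted gene, gave 5, 18 and 31 UMIs in T barcodes, or 17.1 CPM (counts per 1000000 T barcode UMIs of the library), with a counting interval of 5.56 to 40.0, and 39.0 CPM (23.1 to 61.7) and 59.3 CPM (40.3 to 84.2) in the wt/wt, wt/flox and flox/flox libraries, as labelled. The design does not remove the floxed allele in T cells, so in these cells Adar does not check the labels. The sources used here also do not give the floxed exons, and the 3' tags may lie outside the deleted part. Ifih1 gave 0 UMIs in the T barcodes of each library.

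The wt/wt library gave 254 T barcodes, wt/flox 412 and flox/flox 458. Their share of kept barcodes was 2.57% (2.27 to 2.90) in wt/wt, 4.15% (3.77 to 4.56) in wt/flox and 4.69% (4.28 to 5.12) in flox/flox. The wt/wt interval lay below both others, and those of wt/flox and flox/flox overlapped. Per the labels' protocols, cells were collected by a low-speed spin and a Percoll step that favour hepatocytes, and each library was deposited as 10000 barcodes above a lowest count. These steps can set the share, and their part in the difference was not tested. The data do not separate fewer T cells from T cells with too few UMIs to be counted.

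The transcripts used by the rule were few per barcode. The median was 2 UMIs of the 6 genes in each library, and the highest counts were 17, 10 and 15. Just inside the rule, 89, 134 and 145 members held a single such UMI. Just outside it, 17, 20 and 28 barcodes had a CD3 or TCR UMI but also one of the 8 exclusion genes, and 2, 1 and 0 were over the mitochondrial limit. Eomes, a factor of natural killer cells and of some effector T cells, removed 2, 5 and 6 of them, so T cells with Eomes transcripts are missing from the members. A further 49, 63 and 103 barcodes without a CD3 or TCR UMI held at least 3 UMIs of other T cell genes. The chosen genes themselves were Cd3d at 404, 423 and 415 CPM in the wt/wt, wt/flox and flox/flox libraries, Cd3g at 195, 359.8 and 293 CPM, and Trac, the alpha constant gene, at 223, 264 and 253 CPM. Trbc1 and Trbc2, the near-identical beta constant genes, can share reads.

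Genes that the rule did not use gave the same identity. At least 1 leukocyte gene was present in 99.2%, 99.8% and 98.3% of T barcodes, against 14.5%, 18.8% and 17.0% of bare barcodes. Lck, the kinase that starts TCR signalling, was found in 12.6%, 13.8% and 13.5% of T barcodes and in 0.135%, 0.150% and 0.198% of bare barcodes. The leading gene against all other barcodes was Cxcr6, found in 155 members (13.8%), at 117, 165 and 138 CPM in T barcodes and at 0.749, 2.10 and 1.19 CPM in the others. It was followed by Cd5, an inhibitor of TCR signalling, Thy1, a surface marker of T cells, Gimap7, a lymphocyte GTPase, and Bcl11b, the factor that holds T cell identity. Lat and Skap1, which carry the signal from the TCR, and the costimulatory receptors Cd226 and Cd28 were also among the 15 leading genes. The barcodes were chosen by their transcripts, so these folds describe the members and test nothing.

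Other cells left traces. Hepatocyte markers held 9.15%, 9.56% and 7.71% of T barcode UMIs, and 15.4%, 15.5% and 14.8% in bare barcodes. If every hepatocyte transcript in T barcodes were free RNA of the bare composition, free RNA would make up 59.6%, 61.7% and 52.2% of their UMIs, the lowest share being in flox/flox. The bare composition is a rough guide only. For erythroid and platelet markers it would give 1303, 6442 and 156 CPM in T barcodes, where 68.5, 1198 and 19.1 CPM were found. Markers of another cell class reached 3 UMIs in 9, 17 and 8 members (3.54%, 4.13% and 1.75%). A single wt/wt member held 211 of the 217 UMIs of B and plasma cell genes counted there, and a single wt/flox member 160 of 171. In wt/flox, 3 members held 513 of 517 erythroid UMIs. Barcode sequences that occurred in more than 1 library touched 0, 1 and 1 members, and leaving them out moved none of the values by more than its counting interval.

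Cytotoxic effector genes were present in most T barcodes. Ccl5, a chemokine of effector T cells, was found in 48.0% (41.7 to 54.4) of wt/wt, 38.3% (33.6 to 43.2) of wt/flox and 48.7% (44.0 to 53.4) of flox/flox members, against 0.731%, 0.795% and 1.34% of bare barcodes. Nkg7, a protein of cytotoxic granules, was found in 34.3%, 29.4% and 36.2%, and in 0.326%, 0.484% and 0.536% of bare barcodes. One or both of these genes were present in 60.2%, 53.2% and 62.4% of members.

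Coreceptor and chain genes were sparse, so subsets could be named for a minority of members. The CD8 chain genes Cd8a or Cd8b1 were found in 6.30% (3.64 to 10.0) of wt/wt, 7.28% (4.97 to 10.2) of wt/flox and 9.83% (7.26 to 12.9) of flox/flox members, and in 0.0900%, 0.196% and 0.140% of bare barcodes. Cd4 was found in 1.57%, 4.13% and 2.84%, and none of the 91 members with a CD8 chain had a Cd4 UMI (exact interval 0% to 3.97%). Foxp3, the factor of regulatory T cells, was found in 0 of 254 wt/wt members, which allows a share of up to 1.18%, and in 1 member each of wt/flox and flox/flox. The intervals of each of these shares overlapped between libraries.

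Genes of the gamma or delta constant regions were found in 8.27% (5.19 to 12.4), 9.22% (6.61 to 12.4) and 13.5% (10.5 to 17.0) of the wt/wt, the wt/flox and the flox/flox members, and in 0.101%, 0.0692% and 0.198% of bare barcodes. Thinned to 600 UMIs, the shares were 5.51%, 5.58% and 8.52%, with overlapping intervals. The gamma constant genes gave nearly all of this, since Trdc, the delta constant gene, was found in 3, 3 and 7 members. Of the 121 such members 25 also had Trac (20.7%), close to the 23.3% of other members, so that a gamma transcript did not mark a member without alpha chain transcripts. Variable, diversity and joining segments gave 84 UMIs in 79 members, from 28 of the 260 segments in the gene table. Trgv2, a gamma variable segment, gave 36 of these UMIs. Zbtb16, the factor of natural killer T cells, was found in 6.30% (3.64 to 10.0), 3.40% (1.87 to 5.64) and 6.33% (4.28 to 8.97) of members, and in 4.2%, 0.899% and 6.42% of bare barcodes. In wt/flox alone the whole counting interval lay above the bare share, and in flox/flox the share was at the bare level.

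**Figure D1:**
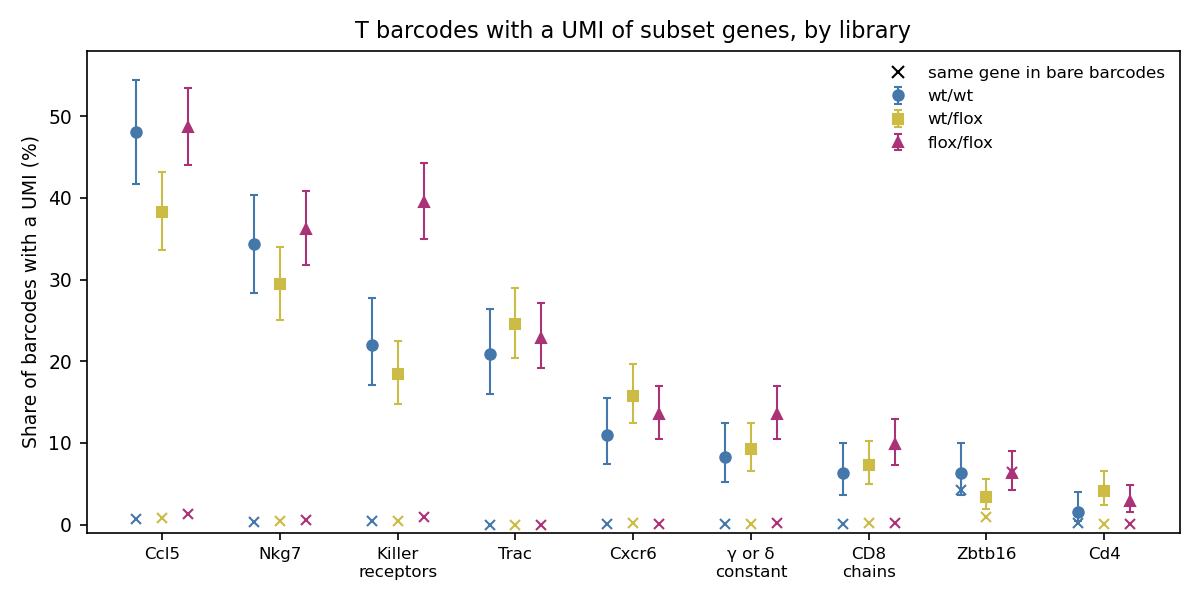
Share of T barcodes with at least 1 UMI of each gene or gene group (percent, points) in the wt/wt, wt/flox and flox/flox libraries, with 95% Clopper-Pearson counting intervals as bars. Crosses give the share in bare barcodes. Killer receptor genes stand at 39.5% in flox/flox, above the 18.4% of wt/flox and the 22% of wt/wt, and the Zbtb16 cross lies within the bar of the point in wt/wt and at the level of the point in flox/flox.

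Gene levels were next compared between libraries over the 7169 genes with at least 20 UMIs in T barcodes. A gene was counted as higher or lower when its CPM in the summed T barcodes differed at least 1.5-fold between 2 libraries. In flox/flox over wt/wt, 19.8% of genes were higher and 13.4% lower, in flox/flox over wt/flox 17.9% were higher and 12.7% lower, and in wt/flox over wt/wt 15.7% were higher and 14.9% lower. The median log2 ratio over all genes was 0.06, 0.05 and 0.02. These comparisons share libraries, so they are not independent of each other. With free RNA subtracted at the bare composition, the genes higher and lower numbered 1935 and 1976 in flox/flox over wt/wt, 2289 and 1037 in flox/flox over wt/flox and 1252 and 2687 in wt/flox over wt/wt, in place of 1423 and 958, 1280 and 909, and 1123 and 1067, and the medians over all genes were 0.05, 0.20 and -0.24. A total of 534 genes (7.45%) were higher in flox/flox than in both other libraries, and 437 (6.1%) lower.

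**Figure D2:**
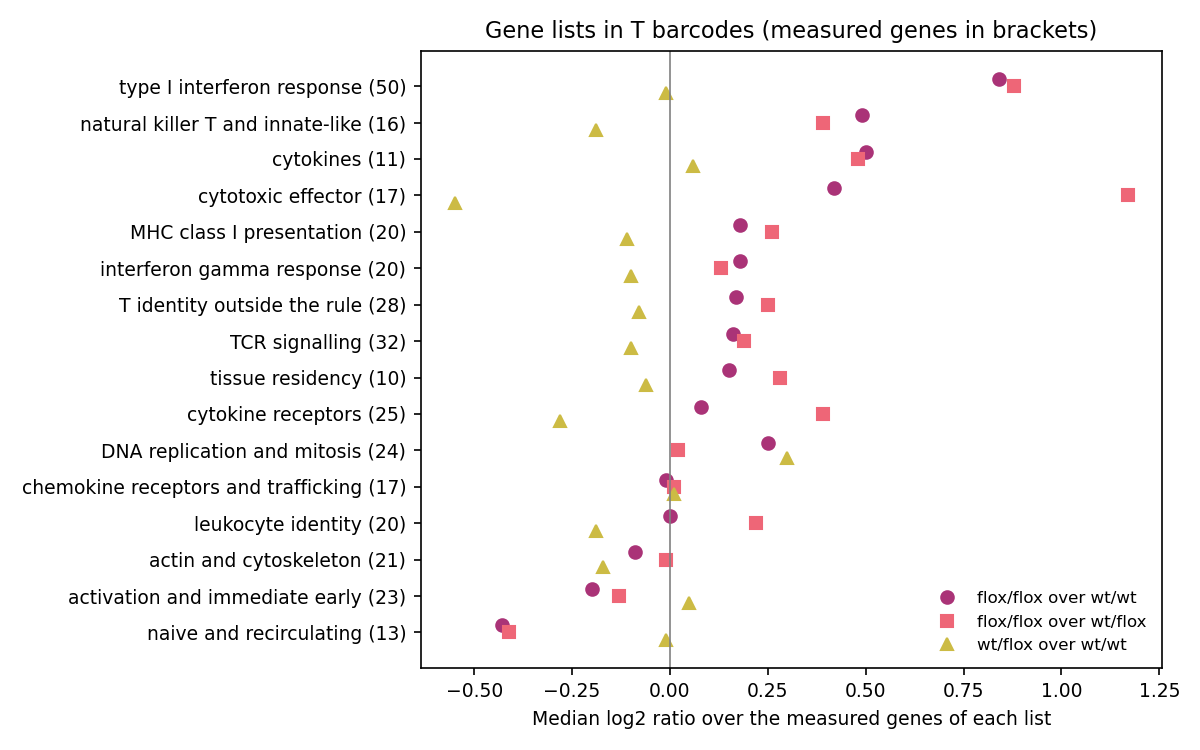
Median log2 ratio of CPM in T barcodes over the measured genes of each list (number in brackets), for flox/flox over wt/wt (circles), flox/flox over wt/flox (squares) and wt/flox over wt/wt (triangles). The type I interferon list lies at 0.84 and 0.88 in both flox/flox comparisons and at -0.01 in wt/flox over wt/wt, and the naive list at -0.43 and -0.41.

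Genes that respond to type I interferon were higher in flox/flox T barcodes than in both other libraries. Of 66 genes on the list 64 were in the gene table and 50 were measured. In flox/flox over wt/wt, 33 of the 50 were at least 1.5-fold higher, against 19.8% of all genes, 0 were lower, and the median log2 ratio was 0.84. In flox/flox over wt/flox, 34 were higher, against 17.9% of all genes, 0 were lower, and the median was 0.88. In wt/flox over wt/wt, 10 were higher and 4 lower, against 15.7% and 14.9% of all genes, with a median of -0.01. A set of 29 members was higher in flox/flox than in both others, against 7.45% of all genes. The summed level of the list was 3386 CPM (3178 to 3604) in wt/wt, 3433 CPM (3266 to 3606) in wt/flox and 5875 CPM (5669 to 6087) in flox/flox.

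Bare barcodes also had a higher level of the list in flox/flox. Their summed level was 1468, 1783 and 3178 CPM, and their median log2 ratio was 1.56 in flox/flox over wt/wt and 0.81 in flox/flox over wt/flox. A set of 16 genes stood at least 5 times higher in T than in bare barcodes, by levels pooled over the 3 libraries. Pooling includes flox/flox, so a gene high there alone could enter the set, and its ratios are descriptions. The summed level of the set was 1494, 1381 and 2445 CPM in T barcodes of the wt/wt, wt/flox and flox/flox libraries, against 64.4, 152 and 218 CPM in bare barcodes. Its log2 ratio was 0.82 (0.69 to 0.96) over wt/flox and 0.71 (0.55 to 0.87) over wt/wt. Of the 16 genes 10 were higher over wt/wt and 13 over wt/flox, against 19.8% and 17.9% of all genes. In either comparison 0 were lower, against 13.4% and 12.7% of all genes. By contrast, 10 measured members were lower in T than in bare barcodes, among them Ifit1, Rsad2, Ifi44 and Stat2, and their values cannot be assigned to T cells. Subtracting free RNA at the bare composition left list medians of 0.86 over wt/flox and 0.72 over wt/wt.

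The members described next came from a few families. Ifi27l2a, a small interferon-induced membrane protein, stood at 209 CPM (159.9 to 269) in wt/wt, 271 CPM (226 to 323) in wt/flox and 513 CPM (453 to 578) in flox/flox, against 10.7, 32.2 and 60.9 CPM in bare barcodes. The flox/flox interval lay above both others, and the log2 ratios were 0.92 (0.61 to 1.24) over wt/flox and 1.29 (0.89 to 1.72) over wt/wt. Ly6c2, the Ly6C surface protein of memory CD8 T cells and monocytes, stood at 147 CPM (107 to 199), 130.0 CPM (99.2 to 167) and 298 CPM (253 to 349). Ly6a, which encodes the Sca-1 surface protein, stood at 147 CPM (107 to 199), 191 CPM (153 to 235) and 383 CPM (331 to 439), with 4.25, 15.9 and 134 CPM in bare barcodes. For both surface proteins flox/flox stood apart and wt/wt and wt/flox overlapped. Ly6 genes are similar in sequence and may share reads.

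The Ifi200 family, cytosolic and nuclear DNA binders, supplied 4 of the 29 members. Ifi203 stood at 134 CPM (95 to 183), 132 CPM (101 to 169.8) and 239 CPM (199 to 285) in the wt/wt, wt/flox and flox/flox libraries. Ifi213 stood at 17.1 CPM (5.56 to 40.0), 28.2 CPM (15.0 to 48.2) and 80.4 CPM (57.9 to 109), and Ifi206 and Ifi208 were also highest in flox/flox. The flox/flox interval of Ifi206 lay above wt/wt and overlapped wt/flox, and that of Ifi208 lay above wt/flox and overlapped wt/wt. Reads may be split between these near copies. Samd9l, an antiviral inhibitor of translation, stood at 58.3 CPM (33.9 to 93.3), 60.7 CPM (40.3 to 87.7) and 161 CPM (128 to 199), and Trim30a, a tripartite motif protein, at 54.8 CPM (31.3 to 89.0), 62.9 CPM (42.1 to 90.3) and 124 CPM (96.0 to 159). For Ifi203, Ifi213, Samd9l and Trim30a the flox/flox interval lay above both others. Samd9l and Trim30a stood less than 5 times above bare barcodes by pooled levels. Bare levels of Samd9l were 14.5, 24.2 and 64.1 CPM, and its log2 ratio over wt/wt was 2.14 in bare and 1.46 in T barcodes. Usp18, the protease that removes ISG15, gave 4, 5 and 37 UMIs, and Irf7, the factor that amplifies interferon production, 5, 17 and 44 UMIs, but bare levels of both in flox/flox, 69.1 and 101 CPM, were close to or above the 70.8 and 84.2 CPM of T barcodes.

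Some members did not differ by 1.5-fold, among them well-expressed ones. Shisa5, a membrane protein that was high in T barcodes, stood at 370.1, 290.4 and 367 CPM, with log2 ratios of 0.34 (0.01 to 0.67) over wt/flox and -0.01 (-0.36 to 0.34) over wt/wt. Epsti1 stood at 141, 106 and 145 CPM, and Oas3, an oligoadenylate synthetase, at 30.8, 26.0 and 28.7 CPM. The intervals of Epsti1 and Oas3 overlapped between all libraries. The level of Oas3 was low, so little can be read from its overlap. The receptor genes Ifnar1 (41.1, 32.5 and 44.0 CPM) and Ifnar2 (51.4, 69.4 and 72.7 CPM) also overlapped. Jak1, the kinase bound to the receptor, stood at 175 CPM (130.1 to 229.8), 217 CPM (176 to 264) and 287 CPM (243 to 337), so that flox/flox lay above wt/wt and overlapped wt/flox.

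**Figure D3:**
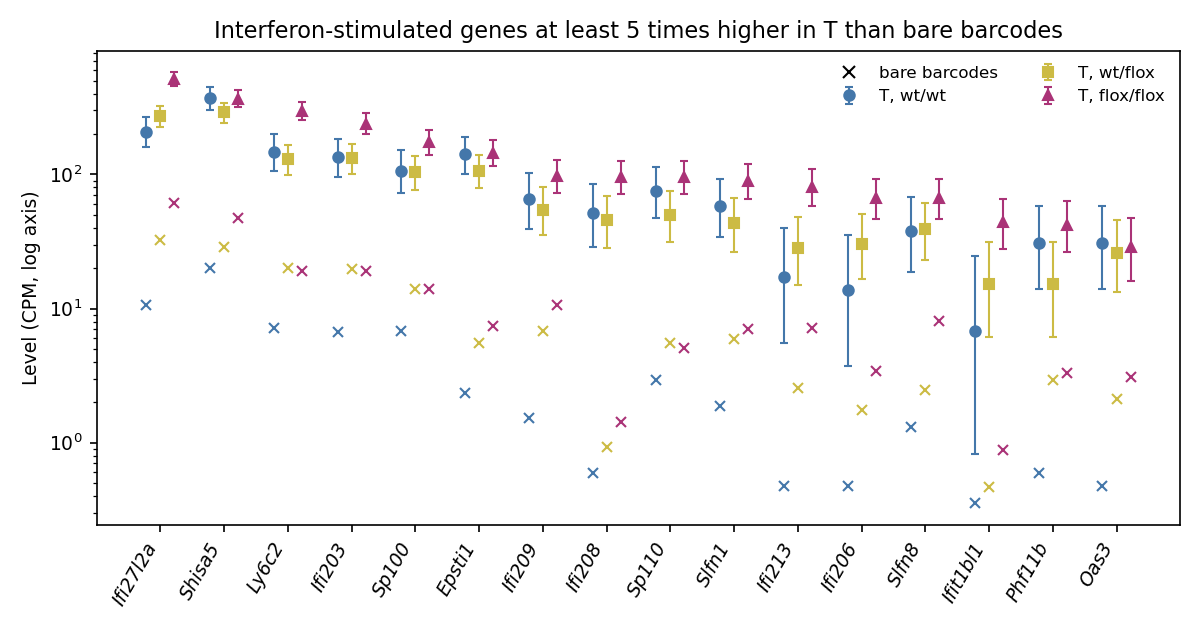
Level (CPM, log axis) of the 16 interferon-stimulated genes at least 5 times higher in T than in bare barcodes by levels pooled over libraries. Bars are 95% Poisson counting intervals for T barcodes in the wt/wt, wt/flox and flox/flox libraries, and crosses are bare barcodes without intervals. Ifi27l2a, Ly6c2, Ifi203 and Ifi213 are highest in flox/flox, while Shisa5, Epsti1 and Oas3 lie at like levels.

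Promoters of these members were searched for the core of the interferon-stimulated response element, which is GAAA, then 2 bases of any kind, then GAAA, on both strands, from 250 bases before to 50 after each start in RefSeq for GRCm38.p6. A match was present in 15 of the 24 members of the set of 29 that had a promoter entry (62.5%) and in 7 of the 17 with an entry among the other measured list members (41.2%). Over all genes with an entry 1079 of 27025 had one (3.99%), or 1131 of 32851 windows (3.44%), and 0 of 3 rule genes with an entry did. The 4 promoters printed here belong to members described above, and show the element at its different positions and orientations in the 250 bases before the start, with matches in capitals. They are Ifi203 (chr1:173942493-173942742, minus strand), Ifi213 (chr1:173599273-173599522, minus strand), Trim30a (chr7:104465194-104465443, minus strand) and Ifit1 (chr19:34640639-34640888, plus strand).
Ifi203: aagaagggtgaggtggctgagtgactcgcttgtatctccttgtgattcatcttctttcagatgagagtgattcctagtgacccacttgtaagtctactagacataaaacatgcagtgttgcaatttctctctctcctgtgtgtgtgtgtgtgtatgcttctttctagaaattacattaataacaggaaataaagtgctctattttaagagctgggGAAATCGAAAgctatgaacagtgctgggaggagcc
Ifi213: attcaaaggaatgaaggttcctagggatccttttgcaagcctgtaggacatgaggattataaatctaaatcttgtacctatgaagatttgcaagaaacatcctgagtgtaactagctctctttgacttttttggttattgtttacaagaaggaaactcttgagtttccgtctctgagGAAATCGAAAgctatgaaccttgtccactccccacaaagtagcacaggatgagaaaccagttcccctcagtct
Trim30a: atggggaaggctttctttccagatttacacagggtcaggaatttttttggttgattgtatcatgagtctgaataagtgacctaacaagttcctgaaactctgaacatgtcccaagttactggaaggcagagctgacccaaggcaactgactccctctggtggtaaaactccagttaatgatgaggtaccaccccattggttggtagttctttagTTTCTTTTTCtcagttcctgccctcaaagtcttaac
Ifit1: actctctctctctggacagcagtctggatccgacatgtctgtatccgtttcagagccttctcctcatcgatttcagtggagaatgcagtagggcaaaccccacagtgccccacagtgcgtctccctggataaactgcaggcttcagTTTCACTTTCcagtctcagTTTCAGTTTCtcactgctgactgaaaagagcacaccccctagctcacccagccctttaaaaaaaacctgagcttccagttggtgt
The match in Ifi203 begins 35 bases before the start and that in Ifi213 73 bases before it, both in the direction of the gene. In Trim30a it lies 36 bases before the start on the opposite strand, and Ifit1 has 2 on the opposite strand, 104 and 85 bases before the start. Ifit1 gave 1, 9 and 30 UMIs in T barcodes, at 57.4 CPM in flox/flox against 75.4 CPM in bare barcodes. A match is a description of the letters and shows no binding. The list was made of genes that respond to interferon, so its share above that of all genes tests nothing. The set of 29 was taken by its ratios in these data. It includes Ifit1, Rsad2, Ifi44 and Stat2, whose values cannot be assigned to T cells.

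Most T barcodes held UMIs of the interferon list. The counts below use the whole list, with the 10 members that were lower in T than in bare barcodes. Free RNA at the bare composition would give 875, 1101 and 1660.2 CPM of the list in T barcodes of the wt/wt, wt/flox and flox/flox libraries. Its part in these counts was not tested. The median member held 3, 3 and 6 list UMIs in the wt/wt, wt/flox and flox/flox libraries, and 5.91%, 6.80% and 0.655% of members held none. Thinned to 600 UMIs, at least 3 list UMIs were present in 29.1% (23.6 to 35.1) of wt/wt, 33.0% (28.5 to 37.8) of wt/flox and 59.6% (55.0 to 64.1) of flox/flox members, against 6.17%, 9.29% and 28.1% of bare barcodes. The flox/flox interval lay above both others.

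Within groups of T barcodes the flox/flox level of the whole list, free RNA included, was also highest. In members with a CD8 chain it was 3426 CPM (2680.3 to 4314) in wt/wt, 2533 CPM (2029 to 3125) in wt/flox and 6455 CPM (5791 to 7175) in flox/flox. In members with a gamma or delta constant gene it was 3353, 3874 and 5904 CPM, and in those with Cxcr6 3901, 3911 and 5757 CPM. In these 3 groups the log2 ratio over wt/wt lay between 0.56 and 0.91. Whether groups differ in this ratio was not tested. Members with 1 CD3 or TCR UMI and those with 3 or more had like log2 ratios, 0.94 and 0.86 over wt/wt and 0.74 and 0.79 over wt/flox.

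**Figure D4:**
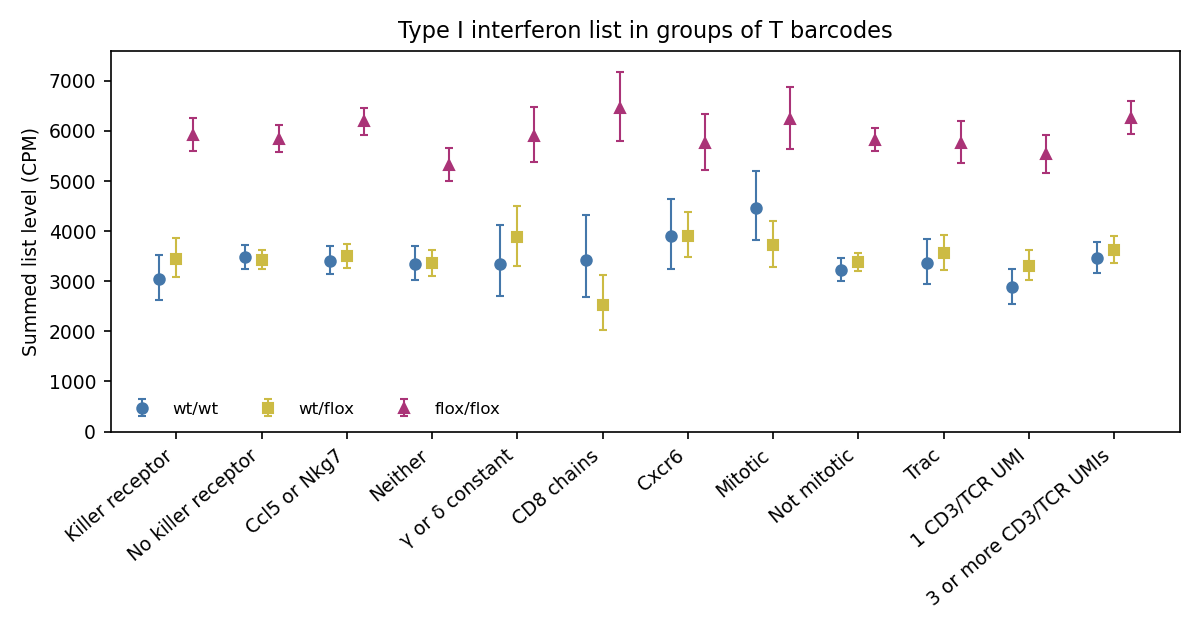
Summed CPM of the type I interferon list in groups of T barcodes, named by the genes they carry, in the wt/wt, wt/flox and flox/flox libraries, with 95% Poisson counting intervals as bars. Each flox/flox point is the highest of its group, and among members with a CD8 chain it stands at 6455 CPM, above 3426 CPM in wt/wt and 2533 CPM in wt/flox.

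Other lymphocytes of the same libraries were set beside the T barcodes. The summed interferon list had a log2 ratio over wt/wt of 0.80 (0.69 to 0.90) in T barcodes, 1.28 (1.00 to 1.57) in the B barcodes, which numbered 66, 83 and 59, and 0.96 (0.30 to 1.67) in the 12, 24 and 26 natural killer barcodes. Over wt/flox the values were 0.78, 1.14 and 0.56. The T and B intervals did not overlap over either library, and those of T and natural killer barcodes did. No test of these differences exists with 1 library per genotype.

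The interferon gamma list differed less. Of 20 measured genes 5 were higher and 5 lower over wt/wt, against 19.8% and 13.4% of all genes, and 3 and 3 over wt/flox, against 17.9% and 12.7%. The medians were 0.18 and 0.13. Gbp6 and Irgm1, GTPases that act on intracellular pathogens, were higher in flox/flox than in both others. These 2 of 20 lie near the 7.45% of all genes. Cxcl9, Gbp5 and Irf8 were lower than in both, against 6.1% of all genes. Gbp6 stood at 34.3, 28.2 and 61.2 CPM, while Cxcl9, a chemokine chiefly of macrophages, came from 11, 27 and 5 UMIs. Ifng itself gave 4, 8 and 2 UMIs. Of 20 measured genes of MHC class I presentation 1 was higher and 1 lower over wt/wt, against 19.8% and 13.4% of all genes, and 2 were higher and 0 lower over wt/flox, against 17.9% and 12.7%. B2m, the light chain of class I molecules, stood at 1882 CPM (1727 to 2046), 2232 CPM (2098 to 2373) and 2562 CPM (2426 to 2703), with 1234, 1786 and 2415 CPM in bare barcodes.

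Receptors of the NKG2 group and CD94 were the second set that stood out in flox/flox. NKG2A and NKG2C pair with CD94 and bind a non-classical MHC molecule, while NKG2D forms a pair with itself and binds stress ligands. These receptors are found on natural killer cells and on effector, natural killer T and gamma delta T cells. Of 17 measured cytotoxic effector genes 7 were higher and 1 lower in flox/flox over wt/wt, against 19.8% and 13.4% of all genes, with a median of 0.42. Over wt/flox 10 were higher and 1 lower, against 17.9% and 12.7%, with a median of 1.17. In wt/flox over wt/wt 2 were higher and 8 lower, against 15.7% and 14.9%, with a median of -0.55. The 7 higher than in both, against 7.45% of all genes, were Fasl, Klrc1, Klrc2, Klrd1, Klre1, Klrk1 and Ly6c2, of which Ly6c2 is also on the interferon list. In members with at least 2 CD3 or TCR UMIs the median over wt/wt was 0.22.

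Klrk1, which encodes NKG2D, stood at 82.3 CPM (52.7 to 122) in wt/wt, 69.4 CPM (47.4 to 97.9) in wt/flox and 189 CPM (154 to 231) in flox/flox, with at most 4.38 CPM in bare barcodes. Klrd1, which encodes CD94, stood at 75.4 CPM (47.3 to 114), 69.4 CPM (47.4 to 97.9) and 159 CPM (126 to 197). In both genes the flox/flox interval lay above the other 2 libraries, which overlapped. Klrc2, the activating NKG2C, stood at 78.8, 49.8 and 119 CPM, Klrc1, the inhibitory NKG2A, at 37.7, 17.3 and 67.0 CPM, and Klre1, a partner receptor, at 17.1, 28.2 and 70.8 CPM. The log2 ratio of Klrk1 was 1.45 (0.86 to 2.07) over wt/flox and 1.20 (0.55 to 1.91) over wt/wt. For Klrc1 and Klrc2, near copies that can share reads, the interval over wt/wt included 0, at 0.83 (-0.18 to 1.95) and 0.59 (-0.12 to 1.35).

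At least 1 UMI of Klrk1, Klrd1, Klrc1, Klrc2 or Klre1 was found in 22% (17.1 to 27.7) of wt/wt, 18.4% (14.8 to 22.5) of wt/flox and 39.5% (35 to 44.2) of flox/flox members, against 0.439%, 0.484% and 0.932% of bare barcodes. Thinned to 600 UMIs the shares were 16.1%, 10.9% and 31.4%. The share was also taken within groups of members. Among members with Trac it was 17.0% (8.07 to 29.8), 13.9% (7.79 to 22.2) and 43.8% (34.1 to 53.8), and among those with 3 or more CD3 or TCR UMIs 28.4%, 19.6% and 42.4%. Members with a gamma or delta constant gene had 38.1%, 34.2% and 50.0%, and members with a CD8 chain 12.5%, 13.3% and 28.9%. In both of these groups the intervals overlapped between all libraries.

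Genes that natural killer cells carry were more frequent in members with a killer receptor gene than in members without one. Gzma, granzyme A, was found in 5.36%, 6.58% and 3.31% of the members with such a gene, in 2.53%, 0.893% and 1.44% of those without, and in 91.7%, 62.5% and 61.5% of natural killer barcodes. Tyrobp, the adaptor DAP12, was found in 7.14%, 13.2% and 7.18%, in 2.02%, 3.27% and 1.44%, and in 41.7%, 54.2% and 46.2%. Fcer1g, an adaptor of Fc and natural killer receptors, was found in 12.5%, 15.8% and 7.73%, in 2.02%, 3.57% and 1.08%, and in 16.7%, 54.2% and 38.5%. Il7r, the interleukin 7 receptor of T cells, was found in 25.0%, 17.1% and 24.9% of members with a killer receptor gene, in 33.8%, 16.7% and 29.6% of those without, and in 0 of 12, 4.17% and 3.85% of natural killer barcodes. Gzma was found in only 8, 8 and 10 members in all. Cxcr6 stood at 161, 257 and 168 CPM in members with a killer receptor gene. It stood at 104, 143 and 117 CPM in those without, and at 0 CPM in natural killer barcodes. Cd226 stood at 177, 134 and 201 CPM, at 122, 151 and 152 CPM, and at 0, 0 and 35.8 CPM in the same order. It was thus lower with such a gene in wt/flox, and Cd8a was lower in each library. The part of natural killer cells in the killer receptor shares was not tested. Over all members the summed level of 15 natural killer and ILC1 markers was 404 CPM (335 to 484), 388 CPM (333 to 449) and 496 CPM (437 to 559.7), with 4 of them at 0 in each library because the rule excluded them.

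**Figure D5:**
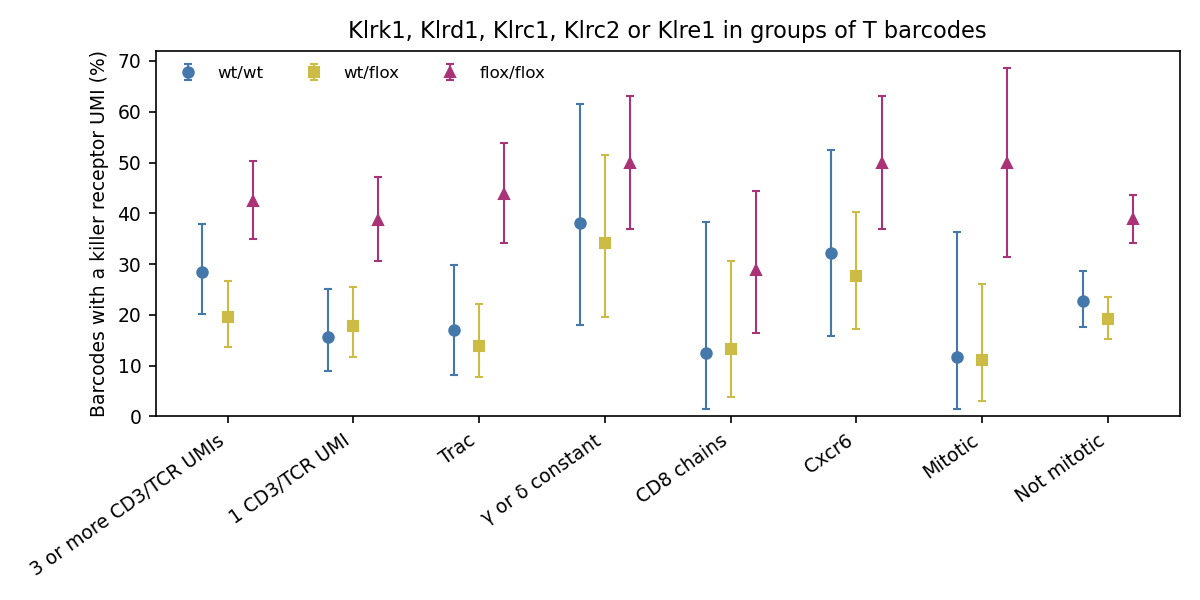
Share of T barcodes with a UMI of Klrk1, Klrd1, Klrc1, Klrc2 or Klre1 (percent) in groups of T barcodes, for the wt/wt, wt/flox and flox/flox libraries, with 95% Clopper-Pearson counting intervals as bars. The flox/flox point is the highest in each group shown. Among Trac members it stands at 43.8%, above 17.0% in wt/wt and 13.9% in wt/flox.

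Granule and chemokine genes of the same list did not follow the receptors. Ccl5 stood at 1244 CPM (1119 to 1379), 849.6 CPM (768 to 938) and 1299 CPM (1203 to 1401) in the wt/wt, wt/flox and flox/flox libraries, so that wt/flox was low and the other 2 overlapped. Nkg7 stood at 408, 340.3 and 478 CPM. Gzmb, granzyme B, stood at 72, 47.7 and 57.4 CPM with overlapping intervals. Gzma stood at 113, 30.3 and 40.2 CPM, but its 33 UMIs in wt/wt came from 8 members. Fasl, the ligand of the death receptor Fas, gave 6, 6 and 20 UMIs, and Prf1, perforin, 3, 6 and 7.

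Of 16 measured innate-like T cell genes 7 were higher and 0 lower in flox/flox over wt/wt, against 19.8% and 13.4% of all genes, with a median of 0.49. Over wt/flox 6 were higher and 2 lower, against 17.9% and 12.7%, with a median of 0.39. Klrb1c, the NK1.1 receptor, stood at 85.7 CPM (55.4 to 126), 67.2 CPM (45.6 to 95.4) and 130.1 CPM (101 to 165). Il18r1 and Il18rap, the chains of the interleukin 18 receptor, stood at 30.8, 32.5 and 49.7 CPM and at 24, 19.5 and 47.8 CPM. Klra1 and Izumo1r were also higher than in both others, from 3, 3 and 18 and from 5, 5 and 15 UMIs. Cxcr6 was not, at 117 CPM (80.7 to 163), 165 CPM (129.8 to 206) and 138 CPM (108 to 173), nor was Cd160, a receptor of innate-like lymphocytes, at 72, 54.2 and 63.1 CPM. Apart from Klrb1c and Il18rap over wt/flox and Klra1 over wt/flox, the intervals of these ratios included 0.

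The median gene of the naive and recirculating T cell list was lower in flox/flox, while the list as a sum differed less. Of 13 measured genes 5 were lower and 1 higher over wt/wt, against 13.4% and 19.8% of all genes. Over wt/flox 5 were lower and 2 higher, against 12.7% and 17.9%. The medians were -0.43 and -0.41. Taken as a sum, the list stood at -0.18 (-0.36 to -0.01) on the log2 scale against wt/wt. Against wt/flox the sum stood at -0.07 (-0.22 to 0.09), and that interval included 0. The summed level was 1477, 1361 and 1301 CPM in T barcodes and 812, 744 and 864 CPM in bare barcodes. Free RNA at the bare composition would give 484, 459 and 451 CPM in T barcodes, and its part in the sum was not tested. Igfbp4 gave the most UMIs of the list. The 4 genes lower than in both others, against 6.1% of all genes, are described first. S1pr1, the receptor for exit from tissue, stood at 85.7 CPM (55.4 to 126), 104 CPM (76.7 to 138) and 42.1 CPM (26.4 to 63.7), with bare levels of 38.8, 51.3 and 33.5 CPM. Lef1, a factor of naive T cells, stood at 68.5 CPM (41.9 to 106), 80.2 CPM (56.5 to 111) and 36.4 CPM (21.9 to 56.8). Klf2, a factor that drives S1pr1, stood at 92.5, 82.4 and 53.6 CPM, and Ccr7, the lymph node homing receptor, at 37.7, 34.7 and 23 CPM. Of these 4 genes S1pr1 alone had intervals below 0 for both ratios. The summed endothelial markers were lowest in flox/flox T barcodes too, at 130.2 CPM (92.2 to 179), 88.9 CPM (63.8 to 121) and 45.9 CPM (29.4 to 68.3). Members that held at least 3 UMIs of these markers numbered 3, 2 and 0. The part of endothelial RNA in the levels of S1pr1 and Klf2 was not tested. Satb1, a chromatin organiser, and Tcf7, a factor of naive and memory T cells, stood at 161, 191 and 205 CPM and at 61.7, 58.5 and 44.0 CPM. In only those members with a Trac UMI the list median over wt/wt was 0.09 and the S1pr1 ratio 0.26 in place of -1.03.

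Il7r went apart from that list. It stood at 380.4 CPM (313 to 458) in wt/wt, 191 CPM (153 to 235) in wt/flox and 359.7 CPM (310.1 to 415) in flox/flox, and was low in wt/flox. Il2rb, the receptor chain shared by interleukins 2 and 15, stood at 367, 284 and 373 CPM. Il2ra, the chain of activated and regulatory T cells, gave 11, 7 and 30 UMIs. Of 25 measured cytokine receptor genes 8 were higher and 3 lower over wt/wt, against 19.8% and 13.4% of all genes, and 6 and 0 over wt/flox, against 17.9% and 12.7%, with medians of 0.08 and 0.39. Among 11 measured cytokines, with medians of 0.50 and 0.48, Tnfsf10, the death ligand TRAIL and an interferon target, stood at 17.1, 17.3 and 44.0 CPM. Ltb, lymphotoxin beta, stood at 243 CPM (190.0 to 307), 178 CPM (141 to 221) and 139.7 CPM (109 to 176), lowest in flox/flox.

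The lists of TCR signalling and T identity differed little by their medians, while their sums were higher in flox/flox. The signalling list of 32 measured genes had medians of 0.19 over wt/flox and 0.16 over wt/wt, with 7 and 6 higher, against 17.9% and 19.8% of all genes, and 2 and 4 lower, against 12.7% and 13.4%. These counts lie near the shares over all genes. Ptpn22, a phosphatase that dampens TCR signals, stood at 130.2 CPM (92.2 to 179), 117 CPM (87.9 to 153) and 266 CPM (224 to 314). Ptprc, the leukocyte phosphatase CD45, stood at 637 CPM (549 to 736), 622 CPM (552 to 698) and 993 CPM (909 to 1082). For both the flox/flox interval lay above the others. Cblb, a ubiquitin ligase that limits activation, stood at 54.8, 34.7 and 97.6 CPM. Of 28 identity genes outside the rule, with medians of 0.17 and 0.25, Cd27, Cd96 and Themis were higher than in both, against 7.45% of all genes. Ms4a4b, a T cell membrane protein, stood at 374 CPM (307 to 451), 505 CPM (442 to 574) and 628 CPM (561 to 699).

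Activation and immediate early genes had medians of -0.20 and -0.13 over 23 measured genes. Dusp2, a phosphatase of MAP kinases induced by TCR signals, stood at 236 CPM (184 to 299), 156 CPM (122 to 197) and 93.7 CPM (69.4 to 124), with bare levels of at most 3.18 CPM. Its order was wt/wt, wt/flox, flox/flox, and the interval of flox/flox lay below that of wt/wt. Dusp1 and Ier2 were also lower than in both, at 103, 106 and 45.9 CPM and at 51.4, 47.7 and 30.6 CPM, but bare levels of these genes were of like size. Cd69, the marker of recent activation and residency, stood at 85.7, 69.4 and 97.6 CPM with overlapping intervals.

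Some T barcodes were dividing. At least 2 UMIs of mitotic genes were present in 17 members of wt/wt (6.69%), 36 of wt/flox (8.74%) and 30 of flox/flox (6.55%), with overlapping intervals, against 0.291%, 0.589% and 0.644% of the barcodes outside the members. These members were deeper, with a median of 2014, 1797 and 2018 UMIs, held 6, 4 and 6 CD3 or TCR UMIs at the median, and had fewer hepatocyte transcripts (4.97%, 4.99% and 3.97%). Top2a, topoisomerase of dividing cells, stood at 171, 189 and 186 CPM over all members. In the dividing members a killer receptor gene was found in 2 of 17, 4 of 36 and 15 of 30, and the intervals of wt/flox and flox/flox did not overlap. The replication and mitosis list had medians of 0.02 over wt/flox and 0.25 over wt/wt.

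Genes beyond the lists were named by the size of their ratio after counting error, so their ratios are descriptions. The 12 highest in flox/flox over both libraries were Cstf2, Nfat5, Samd9l, Ly6a, Ifi27l2a, Ifi213, Klrk1, Ly6c2, Lfng, Serinc3, Ptpn22 and Senp1. Of these 5 are on the interferon list. Serinc3, a membrane protein known for restricting retroviruses, stood at 236 CPM (184 to 299), 189 CPM (151 to 233) and 442 CPM (387 to 503), with 104, 104 and 167 CPM in bare barcodes. Nfat5, the factor of the response to osmotic stress, stood at 17.1, 34.7 and 101 CPM, and Lfng, which modifies Notch receptors, came from 2, 5 and 22 UMIs. Cstf2, of mRNA 3' end cleavage, and Senp1, a SUMO protease, came from 2, 5 and 25 and from 3, 7 and 26 UMIs.

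The 12 lowest in flox/flox were Igkc, Ckb, Rrp7a, H2-Eb1, H2-Ab1, Dusp2, Tsta3, S1pr1, Actb, Cmtm7, Cdk2ap2 and S100a11. Igkc, the kappa light chain constant gene of B and plasma cells, gave 139, 152 and 11 UMIs, most of them from the single members of wt/wt and wt/flox described above. With the exclusion genes ignored its log2 ratios over wt/wt and wt/flox turned from -4.50 and -3.97 to 1.13 and 1.80. H2-Ab1 and H2-Eb1, the beta chains of MHC class II, which mouse T cells hardly express, came from 6, 11 and 7 and from 7, 13 and 10 members. Actb, beta actin, stood at 4363 CPM (4126 to 4609), 3784 CPM (3609 to 3966) and 3216 CPM (3064 to 3374), and the 3 intervals did not overlap, while the actin and cytoskeleton list of 21 genes had medians of -0.09 and -0.01. Ckb, the brain type creatine kinase, stood at 65.1, 60.7 and 24.9 CPM.

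In wt/flox over wt/wt the medians of the lists in the plot of list medians lay between -0.28 and 0.30, apart from the cytotoxic list. A CD4 helper list of 7 measured genes had a median of 0.92, which turned to -0.13 in members with at least 2 CD3 or TCR UMIs. The 6 highest genes were Vps33a, Lsm3, Sept7, Ptpn7, Slco3a1 and Orc6, and the 6 lowest Jchain, Gzma, Txnip, Snapc1, Fbxo33 and Il7r. Sept7, a septin of the T cell cortex, stood at 72 CPM (44.6 to 110.0) in wt/wt, 179.9 CPM (143 to 223) in wt/flox and 155 CPM (123 to 193) in flox/flox. Ptpn7, a phosphatase of haematopoietic cells, stood at 30.8, 95.4 and 51.7 CPM. Txnip, the thioredoxin-interacting protein that follows glucose, stood at 326 CPM (263 to 398), 147 CPM (114 to 187) and 277 CPM (234 to 326). For Txnip, as for Il7r, wt/flox was the low library, and wt/wt and flox/flox overlapped. Jchain gave 24 UMIs in wt/wt, all in 1 member.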

How the data were processed

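Per barcode and gene the authors deposited UMI counts, whole numbers that were not scaled, written by Cell Ranger 6.1.1 per the file headers; Seurat and the build mm10 are named in the submitters' processing notes. The number after each barcode gives the library, of which there is 1 per genotype. The table holds 32285 genes.

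T barcodes were found by the rule in the report. Their UMIs were summed per library and divided by the library's T total (CPM). The summed T depth was 291788, 461411 and 522690 UMIs in the wt/wt, wt/flox and flox/flox libraries. CPM carry exact Poisson intervals, shares Clopper-Pearson intervals and log2 ratios exact conditional binomial intervals, at 95%. In ratios, counts under 3 were set to 3. Genes with at least 20 UMIs summed over the 3 libraries count as measured, and a list needed 5 measured genes for a median. Shares were repeated after thinning each barcode to 600 UMIs. No doublet caller was run; members with at least 3 UMIs of another class's markers were counted and left out as an alternative.

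Named genes needed at least 20 UMIs and, in the library where they were highest, 2 times the bare level. They were ranked by the bound of the counting interval nearest 0, with mitochondrial, ribosomal, predicted, haemoglobin, Xist and Y-linked genes left out. The 12 highest and 12 lowest against both libraries were taken for flox/flox, and the 6 highest and 6 lowest for wt/flox. Leading genes were the 15 with the highest fold over other barcodes among those found in at least 5% of members. From each list the members with most UMIs and those 1.5-fold apart in both flox/flox comparisons could be named; others given for contrast were chosen after their values were seen.

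The members, the lists and the rule were chosen with earlier results of these data known. The sets by bare level, the values per barcode and per group of T barcodes, and the alternatives on Trac, mitosis, other classes, shared sequences and free RNA were added after seeing the data. Calculations used numpy 2.4.6, pandas 2.3.3, scipy 1.17.1 and matplotlib 3.10.9 under Python 3.11.15, and were tested on simulated data. Promoters came from RefSeq with its table's build, GRCm38.p6.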

Additional observations from a re-analysis of the deposited data

How the results depend on the processing

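No paired analysis was possible because each genotype has 1 library and the labels carry no replicate numbers, and for the same reason no replicate could be left out. Depth limits the subsets, since members hold a median of 1002 to 1019 UMIs. The interferon medians of both flox/flox comparisons stayed between 0.72 and 0.91 under all 13 alternatives run on them. Requiring a further leukocyte gene and leaving out shared barcode sequences moved 0 of 159 values each. The causes of the moves below were not tested, except where an alternative keeps fewer genes or barcodes or sets more counts to the floor of 3.

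In the 53, 101 and 105 members with a Trac UMI, T shares were 0.537%, 1.02% and 1.07% in the wt/wt, wt/flox and flox/flox libraries. Genes higher and lower numbered 573 and 478 over wt/wt, 470 and 455 over wt/flox, and 561 and 485 in wt/flox over wt/wt. The interferon median was 0.76 over wt/flox and 0.13 in wt/flox over wt/wt, the cytotoxic median 0.87 and -0.22 in the same order. The naive median was 0.09 over wt/wt, -0.19 over wt/flox and 0.28 in wt/flox over wt/wt, and S1pr1 turned from -1.03 to 0.26 over wt/wt. CD8 shares were 4.95% in wt/flox and 13.3% in flox/flox, Cd4 0% in wt/wt, Foxp3 0% in flox/flox, killer receptors 13.9% in wt/flox and 17.0% in wt/wt, and Zbtb16 0.952% and gamma or delta genes 10.5% in flox/flox.

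With at least 2 CD3 and TCR UMIs the T shares were 1.67%, 2.80% and 3.20%, the cytotoxic median over wt/wt 0.22, the naive median -0.21 over wt/wt and over wt/flox, and the CD4 helper median of wt/flox over wt/wt -0.13 in place of 0.92. With the exclusion genes ignored the cytotoxic median was 0.89 over wt/flox and -0.34 in wt/flox over wt/wt, the naive median -0.63 over wt/flox, and the Igkc ratios 1.13 over wt/wt and 1.80 over wt/flox. Without mitotic members the cytotoxic median was 1.04 over wt/flox, the naive median -0.85 over wt/wt and -0.71 over wt/flox, and the Foxp3 share 0% in wt/flox and flox/flox.

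With free RNA subtracted the interferon median was 0.72 over wt/wt and -0.19 in wt/flox over wt/wt, genes lower over wt/wt numbered 1976, higher over wt/flox 2289 and lower in wt/flox over wt/wt 2687, and the erythroid median of wt/flox over wt/wt turned from 4.04 to -0.66. At 3 UMIs per gene the all-gene medians were -0.14, -0.06 and -0.23. Genes lower there numbered 3523 over wt/wt, 1659 over wt/flox and 4061 in wt/flox over wt/wt, with 1662, 1930 and 1294 higher. The cytotoxic medians were 0.11, 0.39 and -0.41, and the interferon median of wt/flox over wt/wt -0.14. At 40 UMIs per gene 745 were higher and 506 lower over wt/wt, 639 and 484 over wt/flox, 579 and 512 in wt/flox over wt/wt, and the cytotoxic median over wt/wt was 0.56. Scaled without mitochondrial and not T-enriched genes, the counts were 872 and 539, 708 and 470, and 704 and 642, the naive median over wt/flox -0.58 and the interferon median over wt/flox 0.75.

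Thinned to 600 UMIs, in the order wt/wt, wt/flox, flox/flox, shares were 3.54%, 4.37% and 6.77% for CD8 chains, 16.1%, 10.9% and 31.4% for killer receptors, and 3.54%, 1.70% and 3.49% for Zbtb16. They were 5.58% and 8.52% for gamma or delta genes and 0% for Foxp3 in wt/flox and flox/flox, and 1.70% for Cd4 in wt/flox.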

Other observations

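Of 10 measured residency genes 2 were at least 1.5-fold higher in flox/flox than in both others, Rgs2 and P2rx7, against 7.45% of all genes, with list medians of 0.28 over wt/flox and 0.15 over wt/wt. P2rx7, a receptor for extracellular ATP on liver T cells, stood at 51.4, 49.8 and 78.4 CPM in the wt/wt, wt/flox and flox/flox libraries, with overlapping intervals. Of 17 measured chemokine receptor and trafficking genes 1 was higher and 2 lower in flox/flox over wt/wt, against 19.8% and 13.4% of all genes, with a median of -0.01. Itga4, the alpha 4 integrin, stood at 82.3 CPM (52.7 to 122), 73.7 CPM (51.0 to 103) and 136 CPM (106 to 171), and Itgal, the alpha chain of LFA-1, at 219, 176 and 197 CPM.

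The 16 checkpoint and exhaustion genes together gave 50, 96 and 89 UMIs in T barcodes, or 171 CPM (127 to 226), 208 CPM (169 to 254) and 170.3 CPM (137 to 209.5), against 20.9, 29.6 and 35.2 CPM in bare barcodes, and 4 of them were measured. Among the inhibitory receptors, Pdcd1, the receptor PD-1, gave 1, 1 and 0 UMIs, Lag3 1, 2 and 1, and Ctla4 1, 7 and 2. Among helper cell genes, Icos, a costimulatory receptor, stood at 34.3 CPM (16.4 to 63.0), 82.4 CPM (58.3 to 113) and 59.3 CPM (40.3 to 84.2), and Gata3, a factor of type 2 helper and innate-like cells, at 27.4, 39.0 and 57.4 CPM. Xcl1, a chemokine that draws dendritic cells, stood at 51.4 CPM (28.8 to 84.8), 106 CPM (78.6 to 140.4) and 72.7 CPM (51.4 to 99.8). Ccl4 gave 0, 13 and 1 UMIs.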
